A study of Gallus gallus with 24 samples.

Results

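The 9 genes described here encode enzymes on the path from farnesyl diphosphate through squalene to cholesterol: FDFT1, SQLE, LSS, CYP51A1, MSMO1, NSDHL, HSD17B7, SC5D and DHCR7. They were found by their symbols among the 25466 genes counted in each library, and all 9 were among the 13000 genes with enough counts to be tested. RNA came from DF1 cells, a line of chicken embryonic fibroblasts that grows without limit in culture, and was sequenced as poly(A)-selected messenger RNA. IRF9 knockdown cells were sampled after poly(I:C) for 0 h, 30 min, 1 h and 6 h, and mock cells, labelled wild type, at the same times, with 3 libraries in each of the 8 groups. Poly(I:C) is a synthetic double-stranded RNA that cells read as a sign of virus, and the labels name it for all groups, those of 0 h included. The series concerns the part IRF9 plays in the chicken's innate antiviral response. The means of knockdown and the route of poly(I:C) are not stated in the sources used here. No cells kept for 30 min, 1 h or 6 h without poly(I:C) were analysed here, so hours in culture cannot be told apart from poly(I:C) in any change over time.

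Animal cells build sterols from acetyl units through mevalonate and farnesyl diphosphate, which also feeds the synthesis of ubiquinone, dolichol and prenylated proteins. Squalene synthase takes farnesyl diphosphate into the sterol branch, squalene is oxidised and folded into lanosterol, and lanosterol then loses methyl groups and has its double bonds moved or removed until cholesterol is left. In mammals most genes of the path are switched on together by the SREBP transcription factors when sterols in the endoplasmic reticulum are low, and SCAP and INSIG proteins set that response. IRF9 in mammals binds DNA together with STAT factors after interferon has reached its receptor.

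Libraries held 12174030 to 19974065 counts in genes. IRF9, the target of the knockdown, was lower in knockdown cells at all 4 times. At 0 h its mean was 17.8 CPM in knockdown and 27.6 CPM in mock cells, and at 30 min the means were 16.0 CPM in knockdown and 34.6 CPM in mock cells. At 1 h knockdown cells held 15.3 CPM and mock cells 26.99 CPM, and at 6 h knockdown cells held 21.7 CPM and mock cells 32.8 CPM, so that the knockdown level was 46.2 to 66.1% of the mock level. CPM are counts brought to the same TMM-adjusted library total. No libraries of the 2 genotypes overlapped at any time, and a two-sided exact permutation test gave 0.1 at every time, which is the lowest p that groups of 3 can give. The average difference of IRF9 was -0.79 (log2, SE 0.09, adjusted p = 7.67e-05, edgeR), and IRF9 was the only gene called on that average. At 0 h, 1 h and 6 h taken singly edgeR called no gene between the genotypes, so IRF9 itself did not pass the test at those times. The reference lists IRF10 as another name of the gene. The 4 libraries of mock replicate 2 stood apart on the first principal component, at 23.7 to 34.0 against -15.2 to 6.48 for the others. Fibroblast markers, led by FN1, VIM and COL1A1, summed to 5366 to 7701 CPM per library. The lowest of the 12 listed were PDGFRA, which averaged 1.21 CPM over all libraries, LUM at 12.3 CPM and POSTN at 15.8 CPM. Epithelial, skeletal muscle and hepatocyte markers each summed to under 1 CPM in every library, with KRT18, MYOG, MYF5 and TTR at 0.

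By 6 h of poly(I:C), 8 of the 9 enzyme genes rose in IRF9 knockdown cells and the same 8 rose in mock cells, and none fell. The exception, HSD17B7, stood higher at 6 h than at 0 h in both genotypes without passing the test. In the fit to all genes (edgeR quasi-likelihood test, adjusted p under 0.05), 1.43% of the 13000 genes were called higher in knockdown cells and 1.94% in mock cells. For each of the 9 genes, the 3 libraries of 6 h lay above the 3 of 0 h in knockdown cells, as they did for 12.6% of all genes, and likewise in mock cells, as for 8.15% of all genes. The median change of the 9 genes was 1.17 (log2) in knockdown and 1.13 in mock cells, beside medians over all tested genes of 0.01 and -0.00. Against 1 h in place of 0 h, the same 8 genes rose by 6 h in knockdown cells and in mock cells, where 1.32% and 2.11% of all genes were called higher. With the replicate number as a block within each genotype, all 9 genes were called in knockdown cells and in mock cells, against 0 h and against 1 h. Pairing by that number is not stated in the labels and is not clear in knockdown cells. In mock cells it is not shown for replicates other than replicate 2. Without the 4 libraries of mock replicate 2, which stood apart, 9 genes were called against 0 h in knockdown and 7 in mock cells. The share of all genes called in these alternative fits is not given here, so the counts of 9 and 7 cannot be set against it.

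Together the 9 genes took 0.203 to 0.257% of the counts of a knockdown library at 6 h and 0.0794 to 0.0993% at 0 h. In mock libraries they took 0.189 to 0.263% at 6 h and 0.0837 to 0.121% at 0 h. Their summed level was 922 ± 117 CPM at 0 h, 910 ± 109 at 30 min, 949 ± 86.2 at 1 h and 2446 ± 356 at 6 h in knockdown cells, and 982 ± 217, 957 ± 117, 964 ± 104 and 2387 ± 454 CPM at those times in mock cells (SD, n = 3). In each of the 9 genes the highest group means were the 2 of 6 h, and the order of the other 6 groups rested on differences within their spread. All 6 libraries of 6 h lay above all 18 earlier libraries for 8 of the 9 genes, against 1.7% of all genes. SC5D was the exception. In RNA from whole cultures, more cells of a type and more RNA per cell cannot be told apart.

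**Figure D1:**
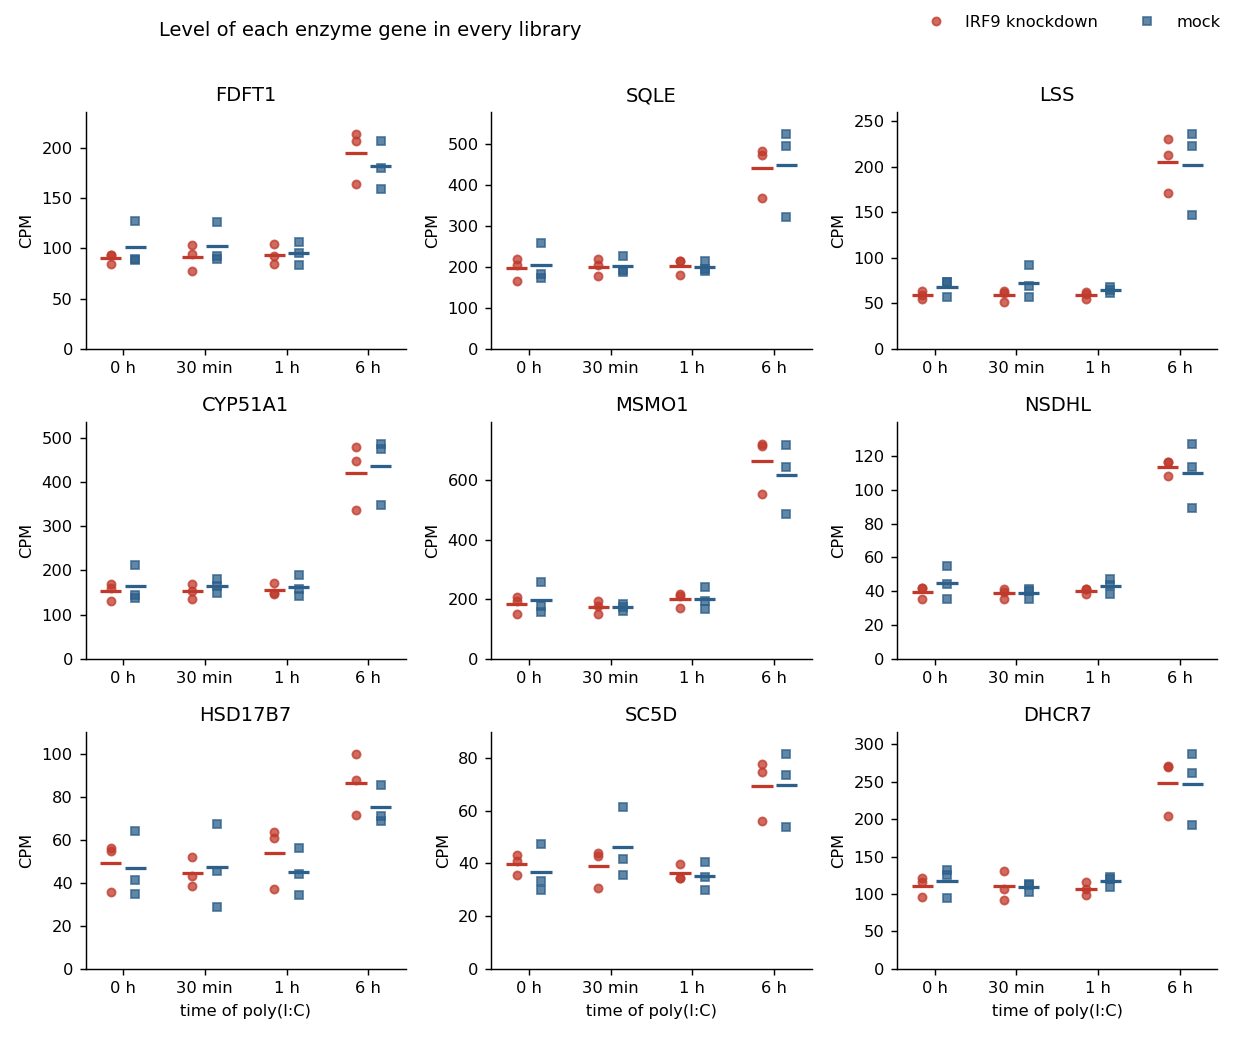
Level in CPM of each of the 9 enzyme genes in all 24 libraries, by time of poly(I:C), with IRF9 knockdown libraries as circles, mock libraries as squares and group means as bars (3 libraries each). The 6 h libraries stand above the earlier ones in both genotypes, with an overlap only for SC5D, whose lowest 6 h library had 53.9 CPM and whose highest earlier library had 61.4 CPM.

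The path opens with FDFT1, squalene synthase, which joins farnesyl diphosphate molecules into squalene (chromosome 3 from 107159522 to 107170589, GRCg7b). In knockdown cells its level was 214, 207 and 164 CPM in the 3 libraries of 6 h, against 93.3, 93.9 and 84.3 CPM at 0 h. In mock cells it was 207, 179.9 and 159 CPM at 6 h, against 127, 88.4 and 89.5 CPM at 0 h. The times were separate in both genotypes, although mock replicate 1 stood well above the other mock libraries at 0 h. FDFT1 rose by 1.11 in knockdown cells (log2, SE 0.15, adjusted p = 7.47e-05, edgeR) and by 0.84 in mock cells (SE 0.15, adjusted p = 0.00161, edgeR).

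SQLE, squalene epoxidase, adds the oxygen that later closes the sterol ring and is a point at which flux through the path is set (chromosome 2 from 137676998 to 137692639). It stood at 483, 474 and 369.8 CPM in knockdown cells at 6 h, against 204, 219.9 and 165 CPM at 0 h. Mock cells held 526, 497 and 323 CPM at 6 h, against 259, 184 and 174 CPM at 0 h. The lowest 6 h library of each genotype, replicate 3, was still above every library of 0 h. The rise of SQLE was 1.17 in knockdown cells (log2, SE 0.16, adjusted p = 7.47e-05, edgeR) and 1.13 in mock cells (SE 0.16, adjusted p = 0.000102, edgeR).

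LSS, lanosterol synthase, folds the oxidised squalene into lanosterol, the first sterol of the path (chromosome 7 from 6946061 to 6956132). Knockdown libraries had 231, 214 and 171 CPM at 6 h, against 58.9, 63.9 and 55.0 CPM at 0 h. Mock libraries had 223, 236 and 147 CPM at 6 h, against 73.6, 73.0 and 56.6 CPM at 0 h. Levels at 6 h were thus 346% of the 0 h mean in knockdown cells and 298% in mock cells, with no overlap. LSS rose by 1.79 (log2, SE 0.17, adjusted p = 1.93e-07) in knockdown and by 1.58 (SE 0.17, adjusted p = 1.09e-06) in mock cells by edgeR, and by p it ranked 9 and 17 among the 13000 genes.

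CYP51A1, a cytochrome P450, takes the first methyl group off lanosterol (chromosome 2 from 22397446 to 22416151). Its 3 knockdown libraries of 6 h held 479, 448 and 338 CPM, against 169, 159 and 129.96 CPM at 0 h. Its mock libraries held 487, 474 and 349 CPM at 6 h, against 212, 144 and 138 CPM at 0 h. Each 6 h library was above all those of 0 h, and replicate 3 was the lowest of its group in all 4 groups. The rise of CYP51A1 was 1.46 in knockdown cells (log2, SE 0.16, adjusted p = 2.92e-06, edgeR) and 1.41 in mock cells (SE 0.16, adjusted p = 4.45e-06, edgeR). AKAP9, which overlaps CYP51A1 by 742 bases in the reference, averaged 80.01 CPM at 6 h, against 79.9 CPM at 0 h, in knockdown cells, and 99.4 against 84.4 CPM in mock cells.

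The next methyl groups are removed by a cycle of 3 enzymes, and its first and second members rose. MSMO1, the oxygenase that opens the cycle (chromosome 4 from 23327125 to 23333448), had 715, 722 and 554 CPM in knockdown cells at 6 h, against 209, 193 and 149 CPM at 0 h. In mock cells MSMO1 had 717, 643 and 487 CPM at 6 h, against 258, 177 and 156 CPM at 0 h. Its mean at 6 h was 362% of that at 0 h in knockdown cells and 313% in mock cells, the highest percentages among the 9 genes in each genotype. MSMO1 rose by 1.86 (log2, SE 0.18, adjusted p = 3.58e-07) in knockdown cells and by 1.65 (SE 0.18, adjusted p = 1.78e-06) in mock cells by edgeR.

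NSDHL, the dehydrogenase that releases the methyl carbon as carbon dioxide (chromosome 4 from 11231433 to 11241992), stood at 116, 117 and 108 CPM in knockdown cells at 6 h, against 42.1, 41.9 and 35.1 CPM at 0 h. Mock cells had 113, 127 and 89.5 CPM at 6 h, against 55.1, 44.0 and 35.1 CPM at 0 h. The 3 knockdown libraries of NSDHL lay close together at both times, and the mock libraries spread more widely without overlap. NSDHL rose by 1.52 (log2, SE 0.14, adjusted p = 1.53e-07) in knockdown and 1.30 (SE 0.14, adjusted p = 1.24e-06) in mock cells by edgeR. At rank 8 in knockdown and 18 in mock cells by p, it varied least of the 9 genes between replicates, with a biological coefficient of variation of 11.8% beside a median of 13.9% over all tested genes.

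HSD17B7, the ketoreductase that closes the cycle (chromosome 8 from 3807059 to 3812894), was the 1 gene of the 9 that did not pass the test. It had 99.98, 88.0 and 71.5 CPM in knockdown cells at 6 h, against 55.0, 56.4 and 35.9 CPM at 0 h, and 85.6, 68.9 and 71.2 CPM in mock cells at 6 h, against 64.2, 34.6 and 41.5 CPM at 0 h. The times did not overlap in either genotype, but replicates differed more for HSD17B7 than for the other 8 genes, with a biological coefficient of variation of 22.2%. Its change was 0.82 in knockdown cells (log2, SE 0.26, 95% interval 0.28 to 1.35, adjusted p = 0.153, edgeR) and 0.69 in mock cells (SE 0.26, 95% interval 0.15 to 1.23, adjusted p = 0.269, edgeR). Libraries of equal number deviated together in mock cells, most for the replicate that stood apart over all genes. Deviations from a group mean tie the other libraries to such an outlier, so pairing of the other mock replicates is not shown. With pairing assumed, as a replicate block within each genotype, HSD17B7 rose in mock cells by 0.74 (adjusted p = 6.18e-05, edgeR). Without the filter on low counts it was called in both genotypes (adjusted p = 0.000896 in knockdown and 0.00849 in mock cells, edgeR). How many of all genes gained a call in those fits is not given here.

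SC5D, a desaturase that sets a ring double bond late in the path (chromosome 24 from 3585596 to 3590778), rose least of the 8 called genes in knockdown cells. It had 74.6, 77.8 and 56.1 CPM there at 6 h, against 41.0, 43.1 and 35.7 CPM at 0 h. In mock cells the libraries of 6 h held 81.6, 73.4 and 53.9 CPM, against 47.3, 33.4 and 30.0 CPM at 0 h. Within each genotype the 2 times were separate, but mock replicate 1 of 30 min, at 61.4 CPM, lay above the lowest libraries of 6 h in both genotypes. SC5D rose by 0.80 in knockdown cells (log2, SE 0.20, adjusted p = 0.0326, edgeR) and by 0.92 in mock cells (SE 0.20, adjusted p = 0.00842, edgeR).

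Both calls of SC5D depended on single libraries, although its direction held in all 33 alternatives run per genotype. In knockdown cells the adjusted p by edgeR was 0.126, 0.0846 and 0.183 without knockdown replicate 1, 2 or 3 at 0 h, and 0.136 and 0.183 without knockdown replicate 1 or 2 at 6 h. In mock cells it was 0.0547 and 0.0729 without mock replicate 2 or 3 at 0 h, and 0.114 without the 4 libraries of mock replicate 2, with a change of 0.81. SC5D overlaps the long noncoding RNA gene LOC107055055 by 693 bases in the reference, and the sources used here do not state the strand setting of the counting, so reads of the overlap are uncertain for both. LOC107055055 held 16130 counts over all libraries, beside 17118 for SC5D, and its change at 6 h was 0.13 in knockdown cells and -0.06 in mock cells (log2, adjusted p = 0.832 and 0.958, edgeR).

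DHCR7, a reductase that removes a ring double bond to give cholesterol (chromosome 5 from 1854449 to 1861160), closes the series. Knockdown cells held 269, 271 and 204 CPM at 6 h, against 121, 116 and 96.7 CPM at 0 h. Mock cells held 288, 262 and 192 CPM at 6 h, against 132, 126 and 94.8 CPM at 0 h. No library of 0 h reached any of 6 h. DHCR7 rose by 1.16 (log2, SE 0.15, adjusted p = 2.64e-05) in knockdown cells and by 1.07 (SE 0.15, adjusted p = 6.29e-05) in mock cells by edgeR.

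**Figure D2:**
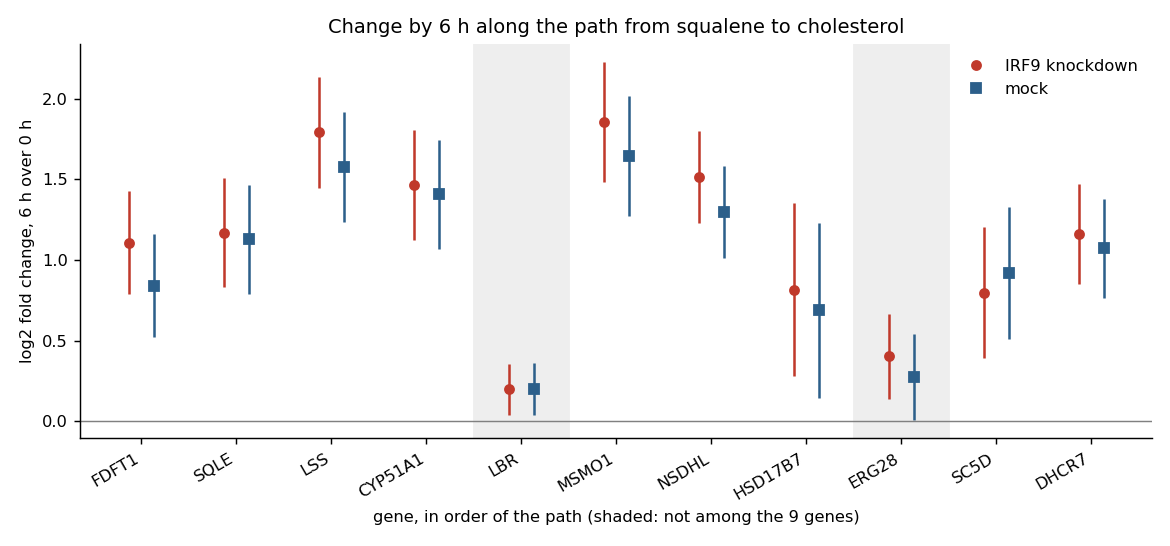
Log2 fold change of 6 h over 0 h for the enzyme genes in the order of the path, in IRF9 knockdown cells (circles) and mock cells (squares), with 95% confidence intervals from the edgeR fit (3 libraries per group). The shaded columns are LBR and ERG28, outside the 9. Of the 9 genes, those from LSS to NSDHL lie at 1.30 to 1.86, and HSD17B7 has the widest intervals.

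Neighbouring genes of the path were set against each other by the log2 ratio of each to the one before it, at 6 h minus at 0 h, as a description without a test. How often the ratios of other gene pairs separate between the times was not computed, so a lack of overlap here has no share to stand beside. The ratio of LSS to SQLE was higher at 6 h than at 0 h by 0.61 in knockdown and 0.44 in mock cells, with no overlap in either genotype. That of MSMO1 to CYP51A1 was higher by 0.40 in knockdown and 0.24 in mock cells, again with no overlap. That of NSDHL to MSMO1 stood at -0.34 in knockdown and -0.35 in mock cells, with all libraries of 6 h below those of 0 h. The ratios of SQLE to FDFT1 (0.07 in knockdown and 0.26 in mock cells) and of SC5D to HSD17B7 (-0.04 in knockdown and 0.19 in mock cells) overlapped between the times. The remaining ratios, CYP51A1 over LSS, HSD17B7 over NSDHL and DHCR7 over SC5D, were separate in knockdown cells, at -0.33, -0.69 and 0.36, and overlapped in mock cells, at -0.14, -0.58 and 0.14.

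At the earlier times the 9 genes stood near their 0 h levels. At 30 min their means were 90.5 to 102% of 0 h in knockdown cells and 86.9 to 125% in mock cells, and at 1 h they were 90.9 to 110% and 93.7 to 102%. None was called by edgeR, or had an unadjusted p under 0.05, or was called by DESeq2, at 30 min or 1 h in either genotype. Over all genes edgeR called 0.0231% at 1 h in knockdown cells and 0.0154% in mock cells. At 30 min it called 0% in each genotype and DESeq2 called 0, while 228 genes in knockdown and 646 in mock cells had an unadjusted p under 0.05. No member's libraries were separate from those of 0 h at 30 min, where 9.98% of all genes were in knockdown and 6.59% in mock cells, or at 1 h, where 9.31% and 5.92% were.

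The early change furthest from 0 was that of SC5D in mock cells at 30 min, 0.32 (log2, 95% interval -0.09 to 0.73, adjusted p = 0.986, edgeR). Its 3 libraries had 61.4, 41.6 and 35.7 CPM at 30 min, against 47.3, 33.4 and 30.0 CPM at 0 h, so they overlapped. NSDHL followed in mock cells at -0.20 (95% interval -0.49 to 0.08, adjusted p = 0.986, edgeR), with 41.1, 40.0 and 35.5 CPM at 30 min, against 55.1, 44.0 and 35.1 CPM at 0 h. In knockdown cells MSMO1, the gene with the highest percentage at 6 h, was at 183 ± 31.0 CPM at 0 h, 173 ± 22.7 at 30 min, 199 ± 25.1 at 1 h and 664 ± 94.8 at 6 h (SD, n = 3). In mock cells it was at 197 ± 53.7, 173 ± 11.5, 201 ± 37.9 and 616 ± 118 CPM at those times. LSS was at 59.3 ± 4.45, 58.9 ± 6.20, 59.4 ± 3.88 and 205 ± 30.7 CPM in knockdown cells at those times. In mock cells LSS was at 67.8 ± 9.67, 72.5 ± 17.6, 64.5 ± 3.44 and 202 ± 48.4 CPM. Both genes were highest at 6 h in both genotypes, but in mock cells the order of their earlier means differed. What happened between 1 h and 6 h was not sampled.

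Of 4 tested markers of myeloid and lymphoid cells, 1 rose by 6 h in each genotype, CD3E, which marks T cells. CD3E averaged 22.8 ± 1.66 CPM at 6 h, against 11.3 ± 1.62 CPM at 0 h, in knockdown cells and 23.7 ± 2.78 CPM at 6 h, against 10.7 ± 1.22 CPM at 0 h, in mock cells (SD, n = 3). The 5 listed genes summed to 32.7 to 39.5 CPM per library at 6 h and 19.4 to 24.03 CPM at 0 h, a difference that lay mostly in CD3E. CD74 was at 9.52 ± 1.05 against 8.77 ± 0.965 CPM in knockdown cells and at 9.53 ± 2.31 against 8.40 ± 1.44 CPM in mock cells, within its spread (SD, n = 3). PTPRC, which marks blood cells, averaged 1.78 CPM and CSF1R 0.856 CPM, and SPI1 had 18 counts over all libraries. All 4 tested markers had a positive change at 6 h, with medians of 0.60 in knockdown and 0.63 in mock cells (log2). For 2 of them in each genotype all libraries of 6 h lay above those of 0 h, as for 12.6% and 8.15% of all genes. Only CD3E had an unadjusted p under 0.05 (edgeR). The 4 endothelial markers summed to 3.13 to 4.82 CPM at 6 h and 1.41 to 3.11 CPM at 0 h, with TEK at 4 counts over all libraries. PECAM1, the 1 tested, averaged 2.17 CPM and changed by 1.29 in knockdown and 0.63 in mock cells (log2). It was called in neither genotype, with an unadjusted p under 0.05 in knockdown cells only (edgeR). The part of such cells in the rise of the enzyme genes was not tested.

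Levels of the 9 genes were then compared between knockdown and mock cells at each time. None of the 9 genes was called between knockdown and mock cells, at 0 h, 30 min, 1 h, 6 h or over the average of the 4 times, by edgeR or DESeq2, and none had an unadjusted p under 0.05. Over all genes edgeR called 0% at 0 h, 0.00769% at 30 min, 0% at 1 h, 0% at 6 h and 0.00769% on average. An unadjusted p under 0.05 was held by 196, 1732, 302, 799 and 1398 genes in those comparisons. DESeq2 called 0 genes at 0 h, 90 lower and 5 higher at 30 min, 0 at 1 h, 4 at 6 h and 1 on average. The knockdown and mock libraries of the 9 genes overlapped at every time, where 9.72% of all genes at 0 h, 11.9% at 30 min, 6.44% at 1 h and 13.3% at 6 h did not.

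In size, knockdown means were 87.5 to 108% of the mock mean at 0 h, 81.2 to 100.8% at 30 min, 91.3 to 120% at 1 h and 96.5 to 115% at 6 h. The difference with the lowest p at a single time was that of LSS at 30 min, where knockdown cells had 61.0, 63.7 and 51.9 CPM and mock cells 91.7, 68.8 and 56.9 CPM. Those libraries overlapped, and mock replicate 1 was the highest of them. The difference of LSS was -0.30 (log2, 95% interval -0.64 to 0.04, adjusted p = 0.451, edgeR), and its average over the 4 times was -0.15 (95% interval -0.32 to 0.02, adjusted p = 0.470, edgeR). HSD17B7 had the highest average, 0.11 (95% interval -0.16 to 0.38, adjusted p = 0.705, edgeR). For the other 7 genes the average lay between those of LSS and HSD17B7, with adjusted p-values up to 0.993. At 6 h the intervals of the 9 differences reached from -0.41 to 0.73. These intervals leave room for differences of that size, so the genotypes are not shown to hold equal levels, and IRF9 itself was reduced and not absent.

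**Figure D3:**
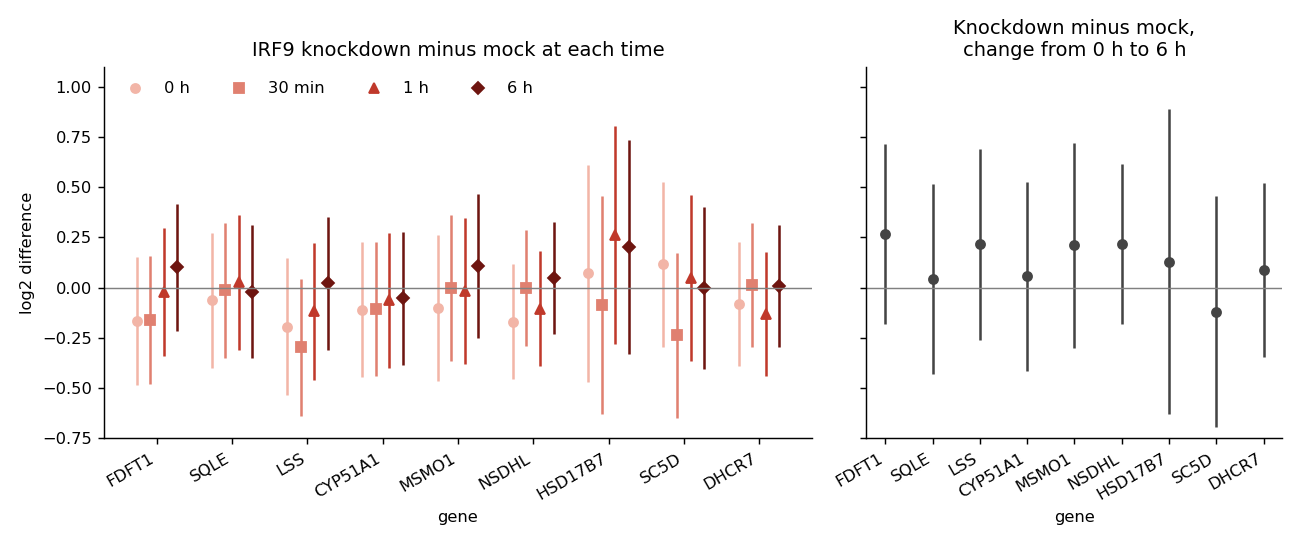
Left, log2 difference of IRF9 knockdown minus mock for each enzyme gene at 0 h, 30 min, 1 h and 6 h; right, the knockdown minus mock difference in the change over 6 h, both with 95% confidence intervals from the edgeR fit (3 libraries per group). All intervals include 0, and the points on the right run from -0.12 for SC5D to 0.27 for FDFT1.

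The 6 h rise itself was compared between the genotypes as an interaction, knockdown change minus mock change. It was positive for 8 of the 9 genes, at 0.27 for FDFT1 (log2, 95% interval -0.18 to 0.71), 0.22 for NSDHL (-0.18 to 0.61), 0.22 for LSS (-0.26 to 0.69) and 0.21 for MSMO1 (-0.30 to 0.72). HSD17B7 had 0.13, DHCR7 0.09, CYP51A1 0.06 and SQLE 0.04, and SC5D had -0.12 (-0.69 to 0.45). None of these passed the test, and each had an adjusted p of 1.00 by edgeR. The 9 interactions share libraries, so their common sign is not 9 separate observations. Their median was 0.13, beside 0.00 over all genes. At 6 h edgeR called 0% of all genes for the interaction (204 at an unadjusted p under 0.05) and DESeq2 called 0. For 30 min edgeR called 0% (750 at an unadjusted p under 0.05) and for 1 h 0% (137), DESeq2 called 0 in each, and the 9 genes lay at -0.35 to 0.17 and -0.07 to 0.19.

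The 9 genes varied together between replicate libraries. A library's deviation is its log2 level minus the mean of its own group, taken as the median over the 9 genes. Knockdown replicate 3 lay below its group at all 4 times, at -0.25 to -0.12, with 2 of 36 values above the group mean, and mock replicate 3 lay at -0.32 to -0.08, with 3 of 36 above. Mock replicate 1 lay above its group at 0.16 to 0.36, with 35 of 36 values above. Over all tested genes the median deviation of a library was -0.02 to 0.03, which the scaling of the libraries keeps near 0. How far other sets of 9 genes deviate was not computed. Because the 9 genes vary together, the 36 values are not separate observations. Knockdown replicates 1 and 2 lay at -0.00 to 0.14 and 0.05 to 0.13, and mock replicate 2 at -0.12 to 0.10, although that replicate stood apart over all genes. IRF9 was at 19.0 to 23.2 CPM in knockdown replicate 3, at 12.2 to 21.0 CPM in knockdown replicate 1 and at 14.0 to 20.9 CPM in knockdown replicate 2. In mock cells it was at 26.4 to 31.9 CPM in replicate 3, 25.0 to 45.3 CPM in replicate 1 and 27.2 to 33.1 CPM in replicate 2. A link between IRF9 and these deviations was not tested. The sources used here do not state whether a replicate number marks a culture or a day. Without the 8 libraries numbered 3, an alternative chosen after seeing the data, 7 of the 9 genes were called at 6 h in knockdown cells and 8 in mock cells. The gene lost in knockdown cells was SC5D (0.85, adjusted p = 0.0508, edgeR). The share of all genes called in that fit is not given here, so the counts of 7 and 8 cannot be set against it.

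**Figure D4:**
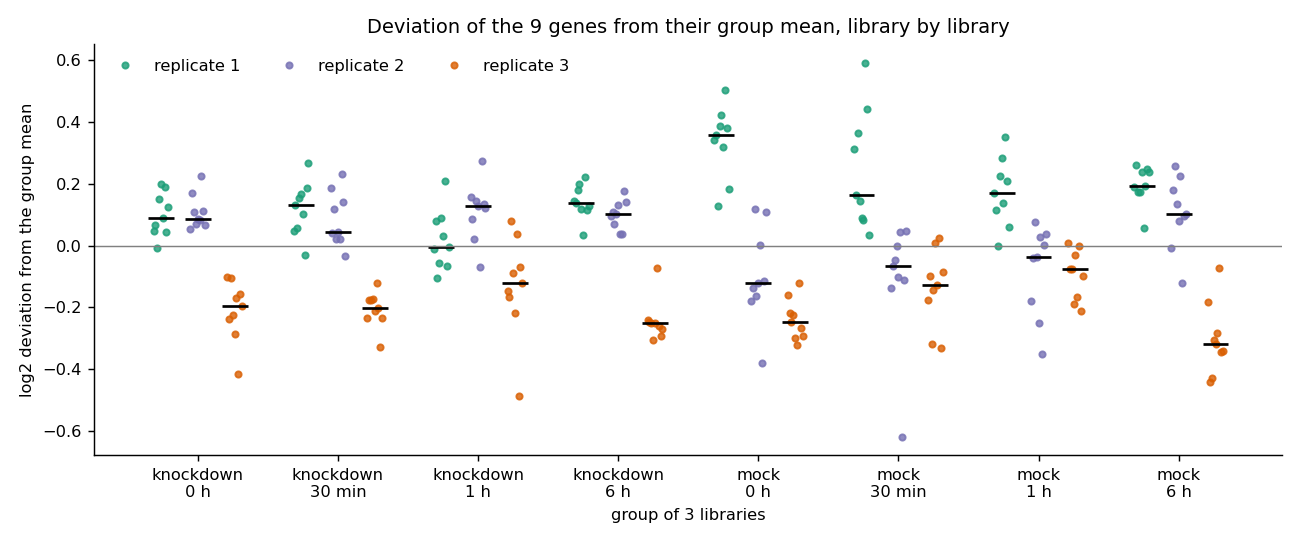
Log2 deviation of each of the 9 enzyme genes from the mean of its group, for the 24 libraries in their 8 groups of 3, knockdown groups left of mock groups, with the median of the 9 genes as a bar. Libraries numbered 3 lie low in all 8 groups, with medians of -0.32 to -0.08, and mock replicate 1 lies high, at 0.16 to 0.36.

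LBR and ERG28 are among the further genes of the steps between lanosterol and cholesterol, some of which are not reported here. Neither LBR nor ERG28 passed the test, and this does not speak for the other genes of those steps. Each had an unadjusted p under 0.05 in both genotypes (edgeR), as did 1370 of all genes in knockdown and 1298 in mock cells. Their libraries of 6 h lay above those of 0 h in knockdown cells, as for 12.6% of all genes, and overlapped in mock cells. LBR, a protein of the inner nuclear membrane that also acts as a sterol reductase, had 0.20 in each genotype (adjusted p = 0.308 in knockdown and 0.280 in mock cells, edgeR). ERG28, which in yeast holds the demethylating enzymes together, had 0.40 in knockdown (adjusted p = 0.156) and 0.27 in mock cells (adjusted p = 0.478, edgeR). The reference gives TM7SF2 as another name of LBR, and EBP was not analysed here.

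Upstream, in the mevalonate arm that makes farnesyl diphosphate, 6 of 7 tested genes rose in knockdown cells and 5 of 7 in mock cells, and none fell. Beside these and the list counts below, edgeR called 1.43% of all genes higher in knockdown and 1.94% in mock cells. The medians were 1.03 and 0.79 (log2). HMGCS1, HMG-CoA synthase, rose by 1.71 in knockdown and 1.66 in mock cells. FDPS, which makes farnesyl diphosphate, rose by 1.25 and 1.03, and MVK, mevalonate kinase, by 0.94 and 0.79. Of 8 tested genes on other routes from farnesyl diphosphate, edgeR and DESeq2 each called 0 in knockdown and 0 in mock cells. None of the 8 had an unadjusted p under 0.05, and the medians were 0.13 and -0.04. With so small a share of all genes called, 0 of 8 does not set these genes apart from genes in general. Among them GGPS1, which makes geranylgeranyl diphosphate, had 0.28 and 0.10, NUS1 and DHDDS, for dolichol, had 0.15 and 0.16 in knockdown and -0.15 and 0.01 in mock cells, and PDSS1, for the ubiquinone tail, had 0.15 in each. IDI1 was not analysed here.

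Of 14 tested genes of sterol sensing, uptake and transport, 2 rose in knockdown and 3 in mock cells, none fell, and the medians were 0.17 and 0.06 (log2). STARD4, a cytosolic sterol carrier, rose by 1.74 in knockdown cells, to 159 ± 17.5 CPM at 6 h, against 47.6 ± 5.55 CPM at 0 h, and by 1.72 in mock cells, to 157 ± 32.9 CPM, against 47.4 ± 7.89 CPM (SD, n = 3). INSIG1, which holds SCAP and SREBP back in the endoplasmic reticulum, rose by 1.60 and 1.42. NPC1, which exports cholesterol from lysosomes, rose in mock cells by 0.43 (adjusted p = 0.00827, edgeR) and had 0.29 in knockdown cells (adjusted p = 0.153, edgeR). MBTPS1, the protease that first cuts SREBP, had -0.11 in knockdown and 0.02 in mock cells. ABCA1, which exports cholesterol from cells, held 102 counts over all libraries and was not tested.

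Of 10 genes of fatty acid synthesis, 5 rose in knockdown and 4 in mock cells, and none fell, with medians of 0.51 and 0.52 (log2). The desaturase gene FADS2 rose by 1.14 in knockdown and 0.92 in mock cells, ACLY, which supplies cytosolic acetyl-CoA, by 0.81 and 0.67, and the elongase gene ELOVL5 by 0.58 and 0.59. SCD, a desaturase gene, rose in knockdown cells by 0.73 (adjusted p = 0.0388, edgeR) and had 0.55 in mock cells (adjusted p = 0.158, edgeR). Between knockdown and mock cells at 6 h, no gene of these related lists was called by edgeR or DESeq2, and 1 had an unadjusted p under 0.05, NUS1 at 0.32.

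**Figure D5:**
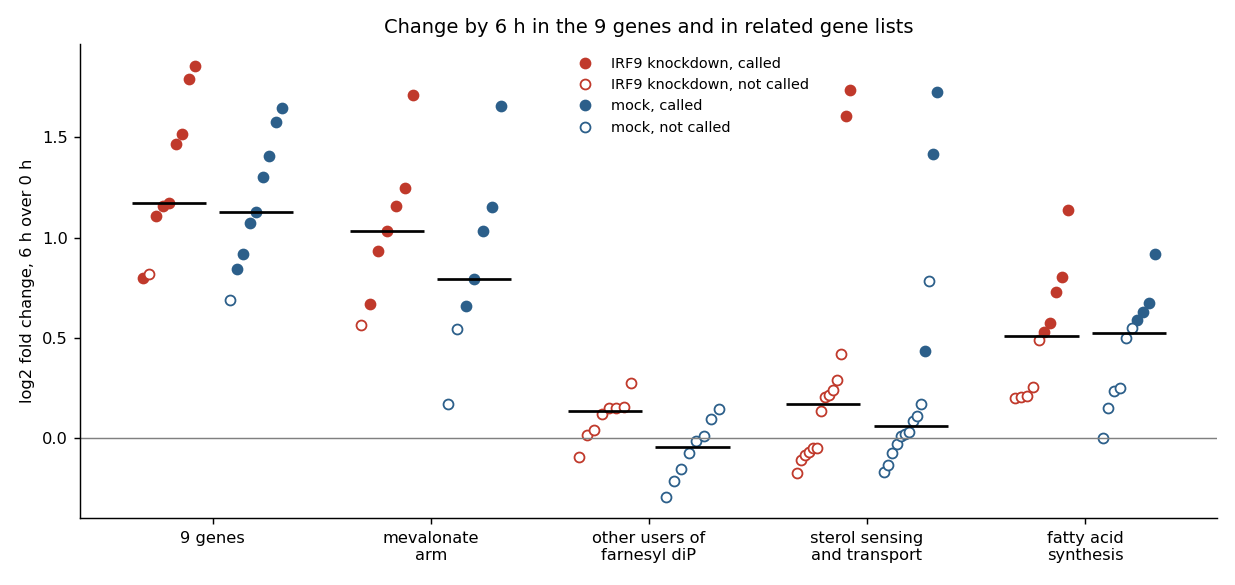
Log2 fold change of 6 h over 0 h for every tested gene of the 9 enzymes and of 4 related lists, in IRF9 knockdown cells (left of each pair) and mock cells (right), with filled points for genes called by edgeR, open points for those not called, and the list's median as a bar. The 9 enzymes have medians of 1.17 in knockdown and 1.13 in mock cells, and the mevalonate arm 1.03 and 0.79. The list labelled other users of farnesyl diphosphate, genes on its other routes, has 0.13 and -0.04.

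The pattern over the 8 groups was also compared with that of other genes. Each gene's log2 change from mock cells of 0 h in the other 7 group means was set against the median of the 9 enzyme genes, as a root mean square difference over those 7 groups, among 8784 genes with a symbol and a mean of at least 5 CPM. Among the nearest genes outside the 9 were SH3BP5 at 0.089, FADS2 at 0.101, HHLA2 at 0.103 and FDPS at 0.106. FADS2 and FDPS belong to the related lists above, and SH3BP5 and HHLA2 to none of them. Of the 9 genes themselves, SQLE lay nearest to their median, at 0.042, and MSMO1 furthest, at 0.325, with 6 h means 1.75 in knockdown and 1.64 in mock cells above mock cells of 0 h. The median is taken from these 9 genes and its 6 h values are those of SQLE. The nearness of SQLE is thus largely built into the measure. The group means share libraries and the measure rests mainly on the 6 h groups, so it describes a like course and says nothing of shared control.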

How the data were processed

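Poly(A)-selected RNA of 24 DF1 libraries was sequenced, 3 per group. The authors deposited whole-number read counts per gene, not normalized, 1 file per library. The submitters' processing notes name STAR 2.7.11b and HTSeq 2.0.5, build GRCg7b, FastQC 0.12.1 with Trim Galore 0.6.10, and edgeR 3.40.2. Reads in no gene (14.6 to 18.8% of a library), ambiguous reads (1.18 to 1.33%), other reads that did not align uniquely (3.43 to 4.25%) and the rest of the 5 summary lines were left out. The 12174030 to 19974065 counts in genes put 3 counts at 0.150 to 0.259 CPM, a floor that covers counting error only. Counts of the 9 genes were 398 to 11613 per library. Libraries of a group differed beyond sampling noise (chi-square per degree of freedom 3.08 to 52.8), so each was counted once.

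From these counts, filterByExpr kept 13000 genes, TMM scaled the libraries, and edgeR 4.0.16 (glmQLFit, glmQLFTest) fitted 8 group means to all 24 libraries, leaving 16 residual degrees of freedom. The biological coefficient of variation common to all genes was 14.0%. Tests were two-sided, with Benjamini-Hochberg adjustment over all 13000 genes and calls at an adjusted p under 0.05. Profiles used log2(CPM + 0.5). The fitting was tested on simulated data. Nothing in the labels ties replicates to separate cultures, so a p-value reflects the spread among these libraries alone, which may be technical. Same-numbered libraries deviated together in all time comparisons of mock cells (r = 0.192 to 0.554 across genes), most for replicate 2, which stood apart. Deviations from a mean of 3 tie the other libraries of a group to such an outlier, and differently numbered libraries were not compared here. Pairing of mock replicates 1 and 3 is thus not shown. In knockdown cells r was -0.02 to 0.21, and replicate 3 against 0 h, at 0.182 to 0.210, lay near the lowest mock values. Between genotypes r was -0.19 to 0.20. Pairing is therefore not clear in knockdown cells or between genotypes.

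The 9 genes and the lists were chosen with earlier results of these data known. Named are the 9 genes, IRF9, the other enzymes of the path, the 4 genes with the smallest p of each other list, and the 5 nearest patterns, except some that are not reported here. Other names were chosen after values were seen. Alternatives were other scalings, no filter, DESeq2 1.42.0, only the groups compared, replicate blocks and libraries left out. Promoter and protein sequences were not used here.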

Additional observations from a re-analysis of the deposited data

How the results depend on the processing

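The counts of enzyme genes called stayed within 1.5 times of those reported in all 523 alternatives run over the 16 comparisons, at 7 to 9 for the 6 h comparisons within a genotype and 0 for the rest. Shares of all genes called in the alternatives are not given here, so a gained or lost call cannot be set against them. FDFT1, SQLE, LSS, CYP51A1, MSMO1, NSDHL and DHCR7 were called at 6 h against 0 h in all 33 alternatives of each genotype. SC5D was called in 27 of 33 in knockdown and 29 of 33 in mock cells, and the libraries that end its calls are named above. It was also lost in mock cells in a fit of only the groups compared (adjusted p = 0.0588, edgeR). HSD17B7 was called in 5 of 33 in knockdown cells, among them the fit of only the groups compared (adjusted p = 0.000940, edgeR) and that without the 4 libraries of mock replicate 2 (0.0205), and in 2 of 33 in mock cells. With the replicate number as a block, its change in knockdown cells was 0.83 within genotypes (adjusted p = 9.46e-06) and 0.82 across them (0.0252). Against 0 h, the blocks changed no other call of an enzyme gene. Against 1 h, all 9 genes were called with the block within genotypes in both.

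Differences between knockdown and mock cells were called in no alternative, and some changed sign. Averaged over the times, MSMO1 was at 0.033 without the 8 libraries numbered 3 and HSD17B7 at -0.049 without the 4 libraries of mock replicate 2. Leaving out 1 library at a time gave -0.066 to 0.031 for SQLE, -0.039 to 0.057 for MSMO1 and -0.059 to 0.042 for SC5D. For the interaction at 6 h, SQLE was at -0.044 without the 8 libraries numbered 3. Leaving out 1 library gave -0.16 to 0.16 for SQLE, -0.17 to 0.19 for CYP51A1, -0.034 to 0.34 for MSMO1, -0.17 to 0.30 for HSD17B7, -0.34 to 0.0052 for SC5D and -0.072 to 0.21 for DHCR7. The cause was not tested. With 3 libraries per group, 95% intervals of single enzyme genes between genotypes at 6 h reach, over the 9 genes, from -0.41 to 0.73.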

Other observations

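Some values bear on neighbours of the enzyme genes and were chosen after they were seen. IDI2, which carries the name of an isopentenyl diphosphate isomerase of mammals, ranked 10 among the genes nearest to the median pattern of the 9 enzyme genes, at 1.27 in knockdown cells of 6 h and 1.19 in mock cells of 6 h (log2, relative to mock cells of 0 h). SH3BP5, named above for its like pattern, was at 0.99 in knockdown cells of 6 h and 1.104 in mock cells of 6 h. CD3E, from the list of lymphoid markers, ranked 12. Of the 50 nearest genes, 43 belonged to none of the related or marker lists.

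Long noncoding RNA genes overlap SQLE by 702 bases and MSMO1 by 198 bases in the reference. LOC121109916, which overlaps SQLE, had 32 counts over all libraries, beside 96735 for SQLE. LOC121110790, which overlaps MSMO1, had 205 counts, beside 110957 for MSMO1. The change of LOC121110790 at 6 h was 0.94 in knockdown and 2.42 in mock cells (log2, adjusted p = 0.741 and 0.113, edgeR).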
